A study of Sus scrofa with 44 samples.

Results

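Troponin is the calcium switch of the striated muscle thin filament, and 7 of its genes were followed through the prenatal development of pig skeletal muscle. The 7 genes were found by the symbol of their Ensembl pig gene ID among the 22427 genes of the expression files: TNNI1, TNNI2, TNNT1, TNNT2, TNNT3, TNNC1 and TNNC2. All 7 matched 1 gene ID each and passed the filter on low values used for the tests, an average TPM of 1 or more across the 18 input libraries. The samples were longissimus dorsi, a long back muscle, of fetuses taken 33, 40, 50, 60, 70 or 95 days after coitus (called E33 through E95), with no treatment named and with strain, sex and litter not given in the labels. Each stage had 3 input libraries of RNA depleted of ribosomal RNA and 3 libraries of RNA precipitated with an antibody against N6-methyladenosine (m6A), a methyl mark on adenosines of RNA. PK15, a pig kidney cell line labelled adult, was prepared both from polyA RNA and from RNA depleted of ribosomal RNA, with 2 input and 2 precipitated libraries each. The design text says that the series follows m6A through prenatal muscle formation.

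In a resting muscle fibre, troponin I holds the thin filament in the off state, troponin T anchors the complex to tropomyosin, and troponin C binds calcium and releases the inhibition. Fast skeletal fibres use the products of TNNI2, TNNT3 and TNNC2, and slow skeletal fibres those of TNNI1, TNNT1 and TNNC1. TNNC1 also serves the heart, and TNNT2 encodes cardiac troponin T, which embryonic skeletal muscle is known to make before birth.

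The fast and slow genes lie in pairs along the genome. On build Sscrofa11.1, TNNI2 (ENSSSCG00000033260) lies at chr2:1251566-1253883 and TNNT3 (ENSSSCG00000031903) at chr2:1297826-1316865, both on the plus strand with 43.9 kb between them. TNNT2 (ENSSSCG00000023031) at chr10:23749528-23759696 and TNNI1 (ENSSSCG00000024061) at chr10:23788279-23800554 share the minus strand, 28.6 kb apart. TNNT1 (ENSSSCG00000025353) lies at chr6:59351445-59365584, 1.24 kb from TNNI3, the gene of cardiac troponin I, which had no value under its symbol here. TNNC1 (ENSSSCG00000011441) at chr13:34591571-34594320 and TNNC2 (ENSSSCG00000007424) at chr17:48025621-48026762 have no member as a neighbour. These are RefSeq gene limits. Over the coding sequences of the 7 genes, the longest run of identical bases shared by any pair was 26 bases, between TNNT1 and TNNT2, and it was 22 bases between TNNC1 and TNNC2 and 15 between TNNI1 and TNNI2.

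Sequences are shown for the places where the m6A peaks of the troponin genes recurred, and for the starts of the fast and slow troponin I genes, a pair whose levels diverged. One exon of 78 bases was covered by a peak at all 6 stages in each of the 3 troponin T genes. It lies in the coding sequence at chr6:59359235-59359312 in TNNT1 (minus strand), chr10:23752274-23752351 in TNNT2 (minus strand) and chr2:1312532-1312609 in TNNT3 (plus strand), all in Sscrofa11.1 and printed 5′ to 3′ along the transcript. Capitals mark GGAC followed by A, C or T, a short form of the m6A consensus, searched on the transcript strand alone.
TNNT1: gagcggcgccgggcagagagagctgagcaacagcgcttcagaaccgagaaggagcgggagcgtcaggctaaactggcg
TNNT2: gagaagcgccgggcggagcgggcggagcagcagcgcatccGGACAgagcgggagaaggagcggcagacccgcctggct
TNNT3: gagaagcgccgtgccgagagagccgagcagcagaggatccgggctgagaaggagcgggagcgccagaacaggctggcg
TNNT2 and TNNT3 were identical at 76.9% of the 78 positions, TNNT1 and TNNT3 at 75.6%, and TNNT1 and TNNT2 at 71.8%. The motif is present only in the TNNT2 copy of this exon. In TNNT1 the stretch covered at all stages also held a copy in the coding exon piece at chr6:59360048-59360111, and in TNNI2 the only stretch covered at all stages was chr2:1253432-1253491, of 60 bases, which held none.
TNNT1, second stretch: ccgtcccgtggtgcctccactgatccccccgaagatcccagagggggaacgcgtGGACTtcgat
TNNI2: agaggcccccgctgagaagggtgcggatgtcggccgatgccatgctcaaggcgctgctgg

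The 250 bases before the start of the curated RefSeq transcript are given for the fast gene TNNI2 (chr2:1251316-1251565, plus strand) and the slow gene TNNI1 (chr10:23800109-23800358, minus strand; RefSeq also has a TNNI1 transcript that starts farther upstream). Capitals mark E-boxes, CANNTG, the letters that myogenic factors of the MYOD family are known to bind.
TNNI2 promoter: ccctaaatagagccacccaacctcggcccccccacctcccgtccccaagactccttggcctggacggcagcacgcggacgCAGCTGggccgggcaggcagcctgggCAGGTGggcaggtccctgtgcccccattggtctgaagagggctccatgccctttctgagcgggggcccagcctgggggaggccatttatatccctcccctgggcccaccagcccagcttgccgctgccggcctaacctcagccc
TNNI1 promoter: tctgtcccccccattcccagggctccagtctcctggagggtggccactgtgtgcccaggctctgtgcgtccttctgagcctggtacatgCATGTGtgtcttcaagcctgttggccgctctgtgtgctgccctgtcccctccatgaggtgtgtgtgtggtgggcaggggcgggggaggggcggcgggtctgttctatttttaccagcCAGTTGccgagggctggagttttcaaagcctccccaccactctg
Each holds 2 E-boxes. Of 3956 windows of the same length before curated pig transcripts, 59.0% hold at least 1, and the share with 2 or more was not counted. The form CAGCTG is in the TNNI2 window and in 14.0% of all windows, and CATTCC, searched on both strands, is in the TNNI1 window and in 9.4% of all. Neither window holds the MEF2 consensus (2.0% of all) or a CArG box (1.21% of all). E-boxes, CAGCTG and the last 2 motifs read alike on both strands in these searches, and CAGCTG is itself an E-box. A match is only a description of the letters.

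Expression was measured in the 18 input libraries as TPM, a level per transcript length whose total is 1000000 in each library, so levels of different genes can be compared but sequencing depth is unknown. Between 37.4% and 72.4% of the TPM of a library was in its most abundant gene. In E40 replicate 2 and E50 replicate 3 the gene ENSSSCG00000032599 held 17.3% and 14.4%, against 0.227% to 1.19% in the other 16 libraries, and all 7 troponin genes had their lowest TPM of the stage there. Each change between stages was therefore fitted on the TPM as deposited and again after scaling each library by the median ratio of 14215 genes, and ratios of troponin genes within a library, which no scaling moves, carry the main comparisons. All 8 skeletal muscle markers looked up were measured, with a summed 1050 to 1720 TPM at E33 and 4880 to 7220 TPM at E95. The markers did not move together: as deposited, means of ACTA1, DES, CKM and MYF6 were higher at E95 than at E33. Those of MYOD1, MYOG, MYMK and PAX7 were lower. Nothing in the labels says that the 3 libraries of a stage came from separate animals, so p-values here measure the spread between these libraries. In whole muscle, fewer cells of a type and less RNA per cell cannot be told apart.

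The fast troponin genes rose from E33 to E95, TNNT2 fell, and the 3 slow genes held levels whose direction depended on the scaling. In limma fits on log2(TPM + 1) with Benjamini-Hochberg adjustment over 13334 genes, 5 of 7 members differed between E33 and E95 as deposited, 3 higher and 2 lower. Without both libraries that stand apart all 7 were called, since TNNI1 (-0.49, limma adjusted p = 0.0392) and TNNC1 (-0.98, adjusted p = 0.00249) were then lower too. The share of all genes called in that smaller fit is not given here. With all 18 libraries, 48.5% of the genes tested were called as deposited, 2.64% higher and 45.8% lower. The median gene fell by 1.02 on the log2 scale. After scaling 5 of 7 were called, 4 higher and 1 lower, where 46.7% of all genes were called, 23.7% higher and 23.0% lower, with the median gene at 0.00. The median change of the 7 members was -0.49 as deposited and 0.77 scaled. Over the 6 stages together, 4 of 7 were called as deposited (20.1% of all genes) and 5 of 7 scaled (47.3% of all genes).

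TNNI2, which makes the inhibitory subunit of fast fibres, rose most. The 3 libraries of E33 held 180.7, 350.8 and 372.0 TPM, and those of E40 held 1354, 437.0 and 1281 TPM. At E50 the 3 libraries held 2052, 2012 and 773.0 TPM, and at E60 2231, 3394 and 3866 TPM. The E70 libraries were close together at 4360, 4305 and 4475 TPM, and E95 had 3747, 5160 and 5042 TPM. Every library from E40 on was above all 3 E33 libraries, and the 437.0 and 773.0 TPM are those of the 2 libraries that stand apart. The limma change from E33 to E95 was 16.0-fold as deposited (log2 SE 0.47, adjusted p = 4.73e-06) and 38.7-fold scaled (log2 SE 0.21, adjusted p = 2.13e-10). Among all genes of a library, TNNI2 ranked between 212 and 259 by TPM at E33 and between 9 and 18 at E70.

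TNNT3 encodes fast troponin T, the tropomyosin anchor. Its libraries held 124.2, 186.9 and 233.3 TPM at E33, 660.9, 222.4 and 681.3 TPM at E40, and 887.3, 874.5 and 286.0 TPM at E50. They then held 941.7, 1378 and 1548 TPM at E60, 1674, 1676 and 1676 TPM at E70, and 1195, 1334 and 1838 TPM at E95. From E60 on every library was above all those of E33 to E50. The 3 E70 libraries differed by an SD of 1.02 TPM, while those of E95 spread around them. The change from E33 to E95 was 3.02 on the log2 scale as deposited (limma, SE 0.49, adjusted p = 1.34e-04) and 4.29 scaled (SE 0.16, adjusted p = 1.32e-10).

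TNNC2, the calcium sensor of fast fibres, started from the highest level of the fast genes. It was at 497.7, 746.8 and 749.4 TPM at E33, 925.5, 336.2 and 1018 TPM at E40, and 1135, 1064 and 373.1 TPM at E50. Later libraries held 1310, 1933 and 2428 TPM at E60, 2967, 2671 and 2754 TPM at E70, and 2856, 3442 and 3567 TPM at E95. The E70 and E95 libraries overlapped each other and lay above every earlier library. The change from E33 to E95 was 5.01-fold as deposited (limma, log2 SE 0.47, adjusted p = 8.75e-04) and 12.1-fold scaled (log2 SE 0.19, adjusted p = 3.24e-09).

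TNNT2, cardiac troponin T, kept a level like that of the slow genes until E70 and then dropped. The libraries held 299.2, 514.0 and 544.0 TPM at E33, 385.7, 152.2 and 422.2 TPM at E40, and 326.9, 312.9 and 131.7 TPM at E50. They held 408.5, 570.0 and 632.9 TPM at E60 and 493.2, 460.7 and 503.3 TPM at E70. At E95 they were at 67.5, 60.2 and 48.5 TPM, below every other library of the series. The step from E70 to E95 was a fall, of 8.22-fold as deposited (limma log2 change -3.04, SE 0.46, adjusted p = 0.00346) and by 2.49 on the log2 scale when scaled (SE 0.24, adjusted p = 1.44e-05). TNNT2 was the only member called lower between E70 and E95 on either scale, in a comparison that called 0.21% of all genes lower as deposited and 6.73% scaled. Between E33 and E95 it fell by 2.89 on the log2 scale as deposited (limma, adjusted p = 1.13e-04) and by 1.62 scaled (adjusted p = 5.65e-05).

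Among heart markers, NPPB was listed at 0 in all 18 libraries, the mean of NKX2-5 was 0.173 TPM at E70 and 0 at the other stages, and GATA4 had stage means of at most 0.0301 TPM. TBX5 was at 1.95 TPM (SD 0.541, n = 3) at E33 and under 0.1 TPM from E40 on. NPPB, NKX2-5, GATA4 and TBX5 were at or near 0 at both E70 and E95. MYH6 was the one heart marker with a high level, at 93.8 TPM at E33, 424 TPM at E60, 319 TPM at E70 and 188 TPM at E95. MYH6 had a lower mean at E95 than at E70 as deposited, a step in which the median gene fell by 0.41 on the log2 scale. Scaled, the mean of MYH6 was 315 TPM at E70 and 276 TPM at E95, and that of TNNT2 was 480 TPM and 88.0 TPM. MYH6 shares sequence with MYH7, which had no value under its symbol, so its reads may be split. NPPA, MYL7 and TNNI3 were not analysed here. The summed level of the 5 measured markers ranged from 64.2 to 125 TPM at E33, from 277 to 364 TPM at E70 and from 173 to 201 TPM at E95. The part of heart tissue in the TNNT2 level was not tested.

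**Figure D1:**
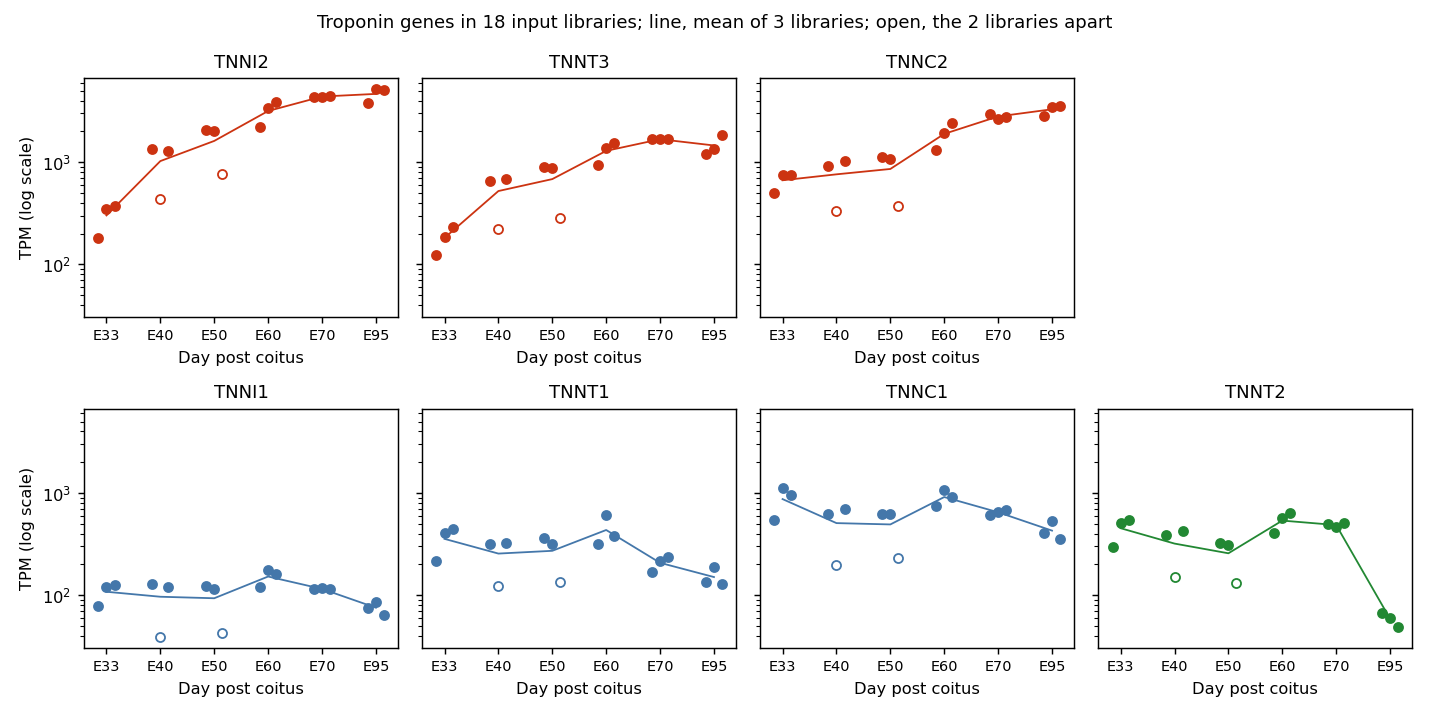
TPM on a log axis in each of 3 input libraries per stage, 1 panel per gene; lines join the stage means, red marks fast genes, blue slow genes, green TNNT2, and open circles the 2 libraries with 17.3% and 14.4% of their TPM in ENSSSCG00000032599. The fast genes climb to E70, whereas TNNT2 stays level and falls to between 48.5 and 67.5 TPM at E95.

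Of the slow genes, TNNC1, the calcium sensor shared by slow muscle and heart, had the highest level. It was at 543.3, 1112 and 959.6 TPM at E33 and at 407.2, 526.8 and 351.4 TPM at E95, with means of 507 TPM at E40, 493 TPM at E50, 913 TPM at E60 and 648 TPM at E70. The change from E33 to E95 was -0.98 as deposited (limma, adjusted p = 0.0993) and 0.30 scaled (adjusted p = 0.318). Leaving out E40 replicate 2 or E50 replicate 3 brought the first below the threshold (adjusted p = 0.0379 and 0.0476), and leaving out E95 replicate 3 the second (adjusted p = 0.0209).

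TNNT1, slow troponin T, was at 216.4, 407.5 and 443.8 TPM at E33, peaked with 320.4, 602.6 and 380.7 TPM at E60, and was at 133.6, 188.7 and 129.4 TPM at E95. All E95 libraries were below all E33 libraries, and the change was -1.19 as deposited (limma, SE 0.48, adjusted p = 0.048). That call was lost in 12 of 18 fits with 1 library left out, those without E33 replicate 2 or 3, without E40 replicate 1, or without any 1 library of E60, E70 or E95, with adjusted p of 0.163 at most. Scaled, the change was 0.08 (SE 0.28, adjusted p = 0.836) and the stages overlapped. TNNI1, slow troponin I, was the lowest of the 7 genes up to E70. Its libraries held 78.4, 120.6 and 125.4 TPM at E33, 121.5, 174.8 and 160.9 TPM at E60, and 75.8, 86.4 and 64.3 TPM at E95. The change was -0.49 as deposited (limma, adjusted p = 0.379) and 0.77 scaled (adjusted p = 0.0087), so its direction turned with the scaling.

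**Figure D2:**
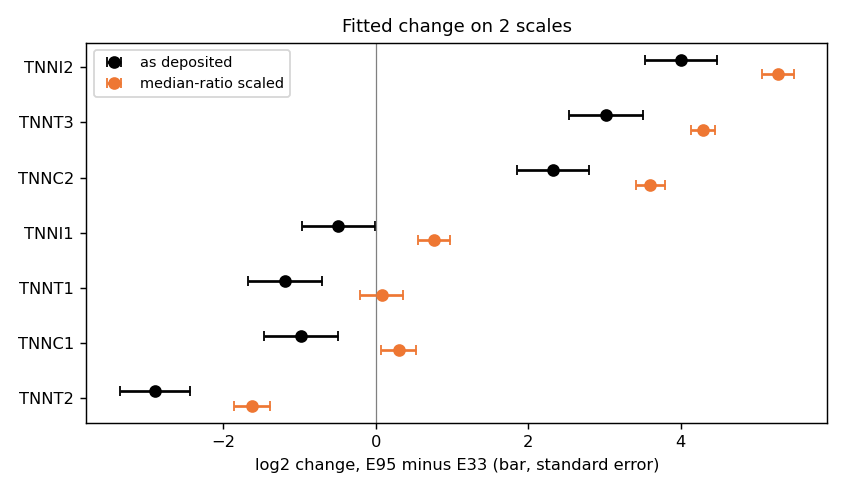
Fitted log2 change from E33 to E95 for each gene with its limma standard error, as deposited (black) and after median-ratio scaling (orange). The fast genes lie between 2.32 and 5.27 and TNNT2 at -2.89 and -1.62, whereas TNNI1, TNNT1 and TNNC1 lie below 0 as deposited and above 0 when scaled.

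Between consecutive stages, the fast genes were called only in the upward direction and TNNT2 only downward, and the steps called depended on the scaling. As deposited, TNNI2 rose 3.17-fold from E33 to E40 (limma log2 change 1.67, SE 0.47, adjusted p = 0.0454), where 0.21% of all genes were called higher. This call was lost in 14 of 18 fits with 1 library left out, with adjusted p of 0.119 at most. It held only without E40 replicate 2 or without any 1 library of E50. No member was called from E40 to E50 (0.0075% of all genes called), from E50 to E60 (0.06%) or from E60 to E70 (0.0825%) as deposited. At an unadjusted limma p under 0.05 the members numbered 0, 4 (TNNI2, TNNT2, TNNT3 and TNNC2, all higher) and 1 (TNNT1, lower) in these 3 steps. The share of all genes at that unadjusted threshold is not given here. From E50 to E60 the median of all genes also rose, by 0.63 on the log2 scale as deposited. Scaled, all 3 fast genes were higher at E40 than at E33, TNNI2 by 2.39, TNNT3 by 2.12 and TNNC2 by 0.78 on the log2 scale, with 9.97% of all genes called higher. In the same scaled limma fit TNNI2 and TNNT3 were higher again at E50 (1.18 and 0.88, with 0.975% called higher), and none was called from E50 to E60 (0.817% called; TNNC2 alone had an unadjusted p under 0.05). TNNT3 and TNNC2 were higher at E70 than at E60 (0.74 and 0.94, with 1.17% called higher). TNNC2 alone was called higher at E95 than at E70 (0.79, with 6.84% called higher). The scaled calls from E33 to E40 held in all 18 fits with 1 library left out. The E50 calls were lost without E40 replicate 3, E50 replicate 1 or E50 replicate 3 (adjusted p of at most 0.075 for TNNI2 and 0.085 for TNNT3). The TNNT3 call at E70 was lost without E60 replicate 1 or 2 or any E70 library (at most 0.134), and the TNNC2 call without E60 replicate 1 or 2 or E70 replicate 1 or 3 (at most 0.124). The TNNC2 call at E95 was lost without E70 replicate 2 or E95 replicate 2 (at most 0.0712). In the other direction, leaving out E40 replicate 2 or E50 replicate 3 brought TNNT3 from E33 to E40 as deposited below the threshold (lowest adjusted p = 0.0249), and 3 further scaled steps passed without 1 or 2 particular libraries. Of these, TNNC2 from E40 to E50 passed without E50 replicate 2, TNNI2 from E60 to E70 without E95 replicate 2, and TNNI2 from E70 to E95 without E50 replicate 2 or E60 replicate 1.

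Within each subunit, the share of the fast gene grew, and the subunits started from different points. TNNI2 made up 73.0% ± 2.81 (SD, n = 3) of the troponin I TPM at E33, 91.5% ± 0.274 at E40 and 98.4% ± 0.362 at E95. TNNC2 made up 43.9% ± 3.81 of troponin C at E33, 60.7% ± 2.16 at E40 and 88.4% ± 2.29 at E95. Troponin I was thus already mostly of the fast form at the first stage, while TNNC1 held the larger share of troponin C (56.1% ± 3.81). In troponin T all 3 genes took part. TNNT3 rose from 18.5% ± 1.39 at E33 over 46.9% ± 1.99 at E40 and 70.7% ± 1.19 at E70 to 87.0% ± 3.66 at E95. TNNT2 was the largest fraction of troponin T at E33, with 45.9% ± 1.18, held 20.5% ± 0.816 at E70, and was down to 3.68% ± 1.22 at E95. TNNT1 went from 35.6% ± 1.59 at E33 to 8.75% ± 1.31 at E70 and was at 9.30% ± 2.76 at E95. At E95, slow TNNT1 was thus the second troponin T gene, ahead of cardiac TNNT2, the reverse of E70.

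**Figure D3:**
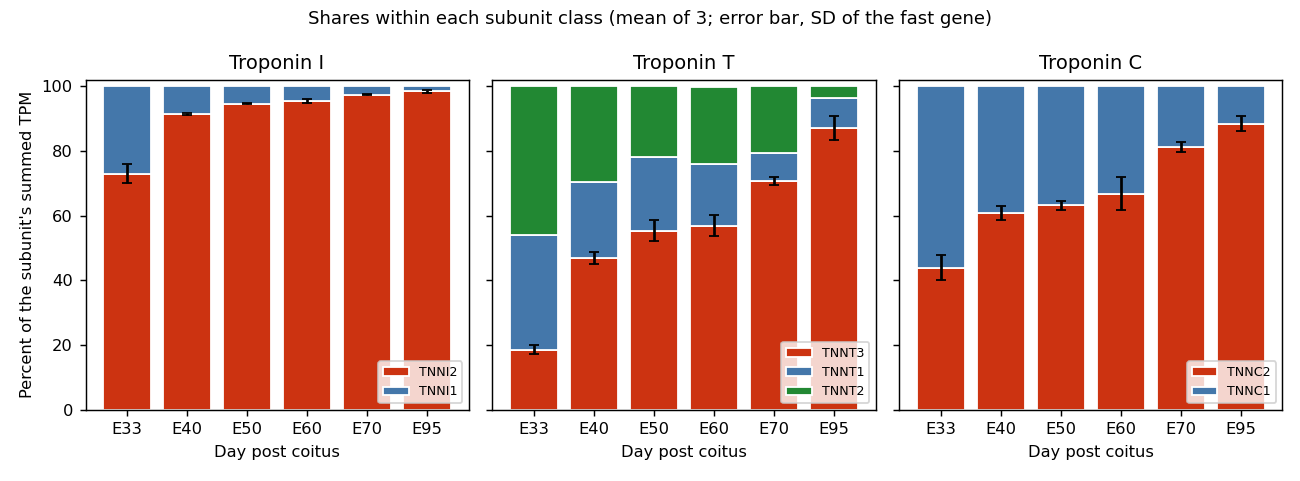
Percent of the summed TPM of troponin I, T and C held by each gene, mean of 3 libraries per stage, with the SD of the fast gene as the error bar. The fast share grows in every panel, from 73.0% to 98.4% for TNNI2, from 18.5% to 87.0% for TNNT3 and from 43.9% to 88.4% for TNNC2.

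The balance between the subunits moved as well. The summed TPM of troponin I was 0.265 ± 0.0231 (SD, n = 3) of that of troponin C at E33, 0.889 ± 0.0689 at E40 and between 1.18 and 1.31 on average from E50 on. Summed troponin T over troponin C was 0.642 ± 0.0636 at E33, 0.902 ± 0.0135 at E50 and 0.447 ± 0.0602 at E95. The 7 genes together held 0.294% ± 0.0862 of a library's TPM at E33, 1.03% ± 0.0185 at E70 and 1.01% ± 0.141 at E95.

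Ratios within a library do not depend on its scaling, and in the 2 libraries that stand apart they lay close to those of the other libraries of the stage. TNNI2 over TNNI1 was 2.31, 2.91 and 2.97 at E33, 10.4, 11.2 and 10.6 at E40, and 16.6, 17.7 and 17.9 at E50. It was 18.4, 19.4 and 24.0 at E60, 38.0, 36.9 and 39.1 at E70, and 49.4, 59.7 and 78.5 at E95. No 2 neighbouring stages overlapped in this ratio. TNNT3 over TNNT1 was 0.574, 0.459 and 0.526 at E33 and 8.95, 7.07 and 14.2 at E95, and E50 overlapped E60 and E70 overlapped E95. TNNC2 over TNNC1 was 0.916, 0.672 and 0.781 at E33 and 7.01, 6.53 and 10.2 at E95. At E33 the fast form was the minor one of the pair in all 3 libraries for troponin T and C, and the major one in all 3 for troponin I.

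From E33 to E95 the log2 ratio grew by 4.50 for TNNI2 over TNNI1 (SE 0.23), by 4.22 for TNNT3 over TNNT1 (SE 0.31) and by 3.31 for TNNC2 over TNNC1 (SE 0.24). With 3 libraries against 3, the exact two-sided permutation test gave p = 0.1 for each, the smallest it can give. Over all 6 stages a permutation test of the one-way F statistic with 100000 resamples called 9 of 10 ratios and ratio differences after Benjamini-Hochberg adjustment over the 10. The adjusted p was 1.7e-05 for the I and C pairs, from the smallest raw p the resamples can give (1e-05), and 2.9e-05 for the T pair. The summed fast TPM over the summed slow TPM went from a geometric mean of 0.873 at E33 to 2.70 at E40, 9.14 at E70 and 14.4 at E95, a log2 change of 4.05 (SE 0.22).

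Compared directly, the shift from E33 to E95 was smaller in troponin C than in the other subunits, a gap that arose by E50. The log2 fast to slow ratio of troponin I grew by 1.20 more than that of troponin C (SE 0.26), and that of troponin T by 0.92 more (SE 0.12), and both differences varied over the 6 stages (permutation test, adjusted p = 5e-05 and 2.1e-04). The exact test of E95 against E33 gave p = 0.1 for each, again the smallest possible with 3 against 3. The difference between troponin I and T, 0.28 (SE 0.28), was the member of the family that was not called (permutation test, adjusted p = 0.11). The log2 ratio of troponin I minus that of C was 1.79 at E33, 2.80 at E40, 3.34 at E50 and 2.99 at E95. For T minus C it was -0.60, 0.36, 0.50 and 0.32, with 0.92 at E70. Neither was wider at E95 than at E50. Exons of a noncoding gene on the opposite strand overlap 64.9% of the TNNC2 coding sequence, and their part in its TPM was not tested.

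Within troponin T, the fast gene gained on the cardiac gene most in the first and the last step. TNNT3 over TNNT2 was 0.415, 0.364 and 0.429 at E33, 3.39, 3.64 and 3.33 at E70, and 17.7, 22.1 and 37.9 at E95. Its log2 change was 1.99 from E33 to E40, -0.09 from E50 to E60, where the libraries overlapped, and 2.83 from E70 to E95. TNNT1 over TNNT2 stayed between 0.602 and 1.11 in every library up to E60, was 0.345, 0.470 and 0.469 at E70, and was 1.98, 3.13 and 2.67 at E95. The slow to cardiac balance within troponin T thus fell at E70 and reversed by E95, with no overlap between E60, E70 and E95. Both ratios were called over the 6 stages (permutation test, adjusted p = 1.7e-05).

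**Figure D4:**
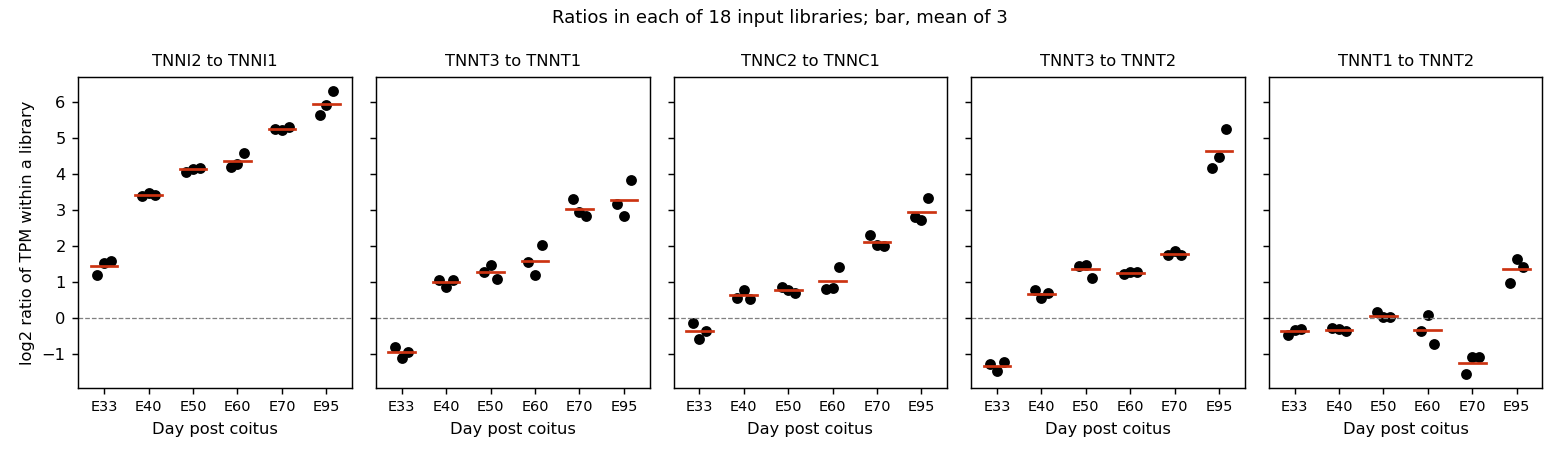
log2 ratio of TPM of 2 troponin genes within each of 18 input libraries, 3 per stage, with the stage mean as a bar; the dashed line marks equal levels. The fast to slow ratios climb by 4.50, 4.22 and 3.31 from E33 to E95, and TNNT1 over TNNT2 dips at E70 before it rises above 0 at E95.

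The order of levels showed the same exchange. At E33 the mean TPM ran from TNNC1 (872 ± 294, SD, n = 3) over TNNC2 (665 ± 145), TNNT2 (452 ± 134), TNNT1 (356 ± 122), TNNI2 (301.2 ± 104.8) and TNNT3 (182 ± 54.8) to TNNI1 (108 ± 25.9). The ranges of neighbours in this order overlapped across libraries, but the order was the same within each of the 3 libraries. At E95 it ran from TNNI2 (4650 ± 784) over TNNC2 (3288 ± 380), TNNT3 (1456 ± 338), TNNC1 (429 ± 89.6), TNNT1 (151 ± 33.1) and TNNI1 (75.48 ± 11.06) to TNNT2 (58.7 ± 9.62). The 3 fast genes were the top 3 at E95, and of the neighbours in this order only TNNI1 and TNNT2 had ranges that overlapped across libraries. This order too was the same within each of the 3 libraries.

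The genes whose scaled log2 levels followed each member most closely over the 18 libraries, by Pearson correlation among 10753 tested genes with a symbol, differed by group. All points share the same 6 stages, so these values describe likeness in time. For TNNI2 they were CKM, the muscle creatine kinase (r = 0.995), MYOZ1, a Z-disc protein of fast fibres (0.994), and SPTB, a spectrin (0.993). For TNNT3 they were CKM (0.997), SPTB (0.993) and MYOM2, an M-band protein (0.992), and for TNNC2 PYGM, muscle glycogen phosphorylase (0.992), TPM2, beta tropomyosin (0.991), and RAMP1 (0.989). TNNT2 was most like NES, the intermediate filament protein nestin (0.952), MYL4, the embryonic and atrial light chain (0.946), and MYBPH (0.934). MYL4 was at a scaled 260 TPM at E70 and 32.3 TPM at E95. TNNT1 was followed by MYL3, the slow and ventricular light chain (0.846), CCN2 (0.842) and MYL6 (0.814). TNNI1 was followed by PKIG (0.905), CCND3 (0.895) and MYH6 (0.887), and TNNC1 by TMED4 (0.839), WDR1 (0.832) and YWHAH (0.824). Among the members themselves, r was 1.00 between TNNI2 and TNNT3, 0.94 between TNNI2 and TNNC2, 0.65 between TNNI1 and TNNT1, and 0.23 between the neighbours TNNI1 and TNNT2. The slow gene TNNI1 was more like the fast genes TNNI2 (0.79), TNNT3 (0.78) and TNNC2 (0.68) than like slow TNNT1. Its r with slow TNNC1 was 0.83, so the members did not part cleanly into fast and slow groups.

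Partners of troponin on the thin filament were listed as context. Of 14 genes, 9 were measured, and in the limma contrast of E95 against E33 4 were higher, 1 lower and 4 not called as deposited, with a median change of 0.97. Of all genes, 2.64% were called higher and 45.8% lower in this contrast as deposited, with a median of -1.02. Scaled, 23.7% were called higher and 23.0% lower, with a median of 0.00. TPM2 went from 1180 to 3720 TPM (log2 change 1.69, adjusted p = 0.0069), and ACTA1, skeletal actin, from 670 to 4260 TPM (2.68, adjusted p = 3.9e-04). LMOD2, a thin filament length regulator, went from 16.6 to 89.1 TPM (2.38, adjusted p = 6.81e-04). TMOD4, the pointed end cap of skeletal muscle, was listed at under 0.001 TPM at E33 and reached 18.5 TPM at E70 and 69.1 TPM at E95 (adjusted p = 4.25e-09). TPM4, a nonmuscle tropomyosin, was lower, from 120 to 27.2 TPM (-2.06, adjusted p = 0.00191). Scaled, 7 were higher, 1 lower and 1 not called, with TPM1, NEB and KLHL40 joining the higher ones (2.24, 1.69 and 1.04). The one not called was ACTC1, cardiac actin, with 3260 TPM at E33, 3980 TPM at E70 and 1630 TPM at E95.

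Further fast and slow fibre genes were listed beside the troponins, in the same contrast and beside the same shares of all genes. Of 11 fast fibre genes 6 were tested, and all 6 were higher at E95 than at E33 in the limma fit as deposited, with a median of 2.76: MYL1 (2.20), MYBPC2 (3.45), ACTN3 (2.67), ATP2A1 (2.21), CASQ1 (2.85) and MYLK2 (2.97). PVALB was measured, with stage means of at most 5.04e-04 TPM, and did not pass the filter. ACTN3, at means of 0.184 to 0.479 TPM from E33 to E50, passed it only through later stages, which favours an upward call. Of 11 slow fibre genes 6 were tested, and 4 were higher and 2 not called as deposited, with a median of 1.55. MYL2, the slow regulatory light chain, changed by 1.72, MYBPC1 by 2.12, CSRP3 by 1.39 and ANKRD2 by 1.96. The slow fibre count was 2 without E33 replicate 1 and 2 without E95 replicate 2. Scaled, all 6 of either list were higher, with MYL3 (1.20) and ATP2A2 (1.05) among the slow ones. Of 13 regulators of fibre type 12 were tested. PPARGC1A, a coactivator of oxidative fibres, was higher as deposited (2.36, adjusted p = 4.55e-04), and EYA1 (-1.77), NFATC1 (-1.40) and MYOG (-1.32) were lower. Scaled, EYA1 (-0.83) and NFATC1 (-0.29) were lower, MYOG was not called (-0.06, adjusted p = 0.793), and 7 were higher, namely PPARGC1A (3.19), PROX1 (1.24), SOX6 (1.20), MEF2C (1.04), NFIX (0.95), TEAD1 (0.91) and MYOD1 (0.84).

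Markers of other tissues are given as summed TPM as deposited, a scale on which the median gene fell by 1.02 in log2 from E33 to E95. The summed TPM of the 4 neural markers measured was 132 to 266 at E33 and 5.91 to 7.42 at E95, and that of the 4 erythroid markers 128 to 413 and 2.13 to 6.35. Most of the erythroid sum at E33 was HBZ, a globin gene, with a mean of 223 TPM there and 1.35 TPM at E95. ALAS2 (2.14 and 1.01 TPM) and GATA1 (5.27 and 1.82 TPM) were not called between E33 and E95 by limma on either scale. The 5 cartilage and tendon markers summed to 217 to 344 TPM at E33 and 19.8 to 32.9 TPM at E95, and the 5 smooth muscle markers to 179 to 315 and 72.4 to 93.2 TPM. The 3 endothelial markers summed to 18.6 to 38.9 TPM at E33 and 40.1 to 49.7 TPM at E95, and none of the 3 was called as deposited. Among tested markers, limma after scaling called 3 of 4 neural, 1 of 3 erythroid and 3 of 5 cartilage and tendon genes lower. Of 4 smooth muscle markers it called 1 lower and 1 higher, and it called all 3 endothelial markers higher. The same scaled fit called 23.0% of all genes lower and 23.7% higher. EPOR was at 0 at E40, E60 and E95 and SCX at 0 at E95. The part of these cells in the troponin levels was not tested.

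Peaks of m6A, regions where precipitated RNA exceeded input, came as 1 list per muscle stage and per PK15 preparation, so peaks have no replicates and no test was made. Fold enrichments are the authors' own and are ranked only within their list. The 6 stage lists held 56 peaks of the 7 genes, with folds from 1.33 to 20.0, and 15 of the 56 were above the median fold of their list. Of the genes, 6 had a peak at E33, E50, E60 and E95, 5 at E40 and all 7 at E70. Among all genes that averaged 50 TPM or more at the stage, the share with a peak was 63.0% at E33, 47.3% at E40 and between 51.5% and 59.8% at the later stages. TNNI2, TNNT1, TNNT2, TNNT3 and TNNC2 had a peak in all 6 stage lists.

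Peaks of the troponin T genes ran over many exons of the coding sequence. In TNNT1, 1 peak per stage of 6 to 12 exon blocks covered coding sequence, and 390 coding bases were covered in all 6 lists. Its fold was 10.2 at E33, above 97.3% of the peaks of that list, 6.68 at E40 (above 83.0%), 7.27 at E50 (above 77.2%), 2.57 at E60 (above 15.4%), 2.96 at E70 (above 23.5%) and 3.17 at E95 (above 25.1%). Lists of different length do not show a change, and these places are given side by side. In TNNT2, 434 coding bases were covered in all 6 lists, and the 8 peaks had folds of 1.88 to 4.17, none above the median of its list. The E95 peak of TNNT2 (fold 3.14, at chr10:23750865-23756374) had the same limits as the E33 peak (fold 2.82), although its TPM was lower at E95.

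TNNT3 had the most peaks, 20 in the 6 lists, and the highest folds lay toward its 5′ end. The peak at chr2:1301531-1306243, of 9 blocks with 60.2% of its bases in coding sequence, had a fold of 20.0 at E50, above 98.6% of that list, and of 9.43 at E40, above 94.9%. A peak that starts at chr2:1299303, with its bases in RefSeq exons before the coding sequence or outside RefSeq exons, was listed at E40 (fold 16.2), E60 (5.02), E70 (4.98) and E95 (3.08). Peaks over the central coding exons, around the 78-base exon printed earlier, had folds of 1.66 to 2.42 at the 6 stages and were above 1.17% to 8.12% of the peaks of their lists. TNNI2 had 1 peak per stage, within chr2:1252964-1253929, with folds of 2.31, 2.79, 1.85, 1.75, 1.53 and 1.77 from E33 to E95, none above the median of its list.

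Stage peaks covered less of the coding sequence in TNNI1 (1.95% over all stages), TNNC1 (11.7%) and TNNC2 (35.8%) than in the other 4 genes (86.2% to 92.8%). TNNI1 had the same 180-base peak, chr10:23796735-23796914 on the minus strand, in the lists of E33, E50, E60, E70 and E95, with folds of 2.59, 5.63, 5.61, 6.38 and 7.24. Only 30 of its bases lie in RefSeq exons of TNNI1, of which 11 are coding, and 43 of the 180 are masked as repeat in the genome file. It is printed here because the rest of the peak is intron in RefSeq. It holds no copy of the GGAC motif.
TNNI1 peak: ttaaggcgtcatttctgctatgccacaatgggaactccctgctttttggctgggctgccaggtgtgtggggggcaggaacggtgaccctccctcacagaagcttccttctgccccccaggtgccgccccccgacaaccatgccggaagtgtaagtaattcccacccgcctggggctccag
TNNI1 had no peak at E40. At E70 and E95 a second TNNI1 peak had its lower coordinate at chr10:23787151, beyond the RefSeq 3′ end of the gene (folds 3.45 and 4.50). TNNC1 had a single peak, at chr13:34591685-34591744 at E70, with a fold of 1.59 that was above 0.577% of the list.

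TNNC2 had peaks in 2 places. One lay in coding sequence at chr17:48026285-48026497 or within it at E33, E40, E60 and E95, with folds of 1.48, 1.99, 1.41 and 1.33. The other, chr17:48026706-48027533 at E50, E60 and E95 and 30 bases longer at E70, had folds of 2.49, 3.43, 2.68 and 2.65, and 70.9% to 75.1% of its bases lay outside RefSeq exons of TNNC2. RefSeq has a noncoding gene on the opposite strand, LOC110257453, whose exons overlap 312 bases of TNNC2 exons and 64.9% of its curated coding sequence. Whether the libraries keep strand is not given in the sources used here, so reads of these genes cannot be told apart. TNNC2 and TNNT1 were also the members with a peak in PK15, where cells are not muscle. TNNT1 had a fold of 5.18 in the polyA list and 2.80 in the list of RNA depleted of ribosomal RNA, and TNNC2 of 13.6 and 4.91. The 78-base exon of TNNT1 lay within the TNNT1 peak in both PK15 lists.

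**Figure D5:**
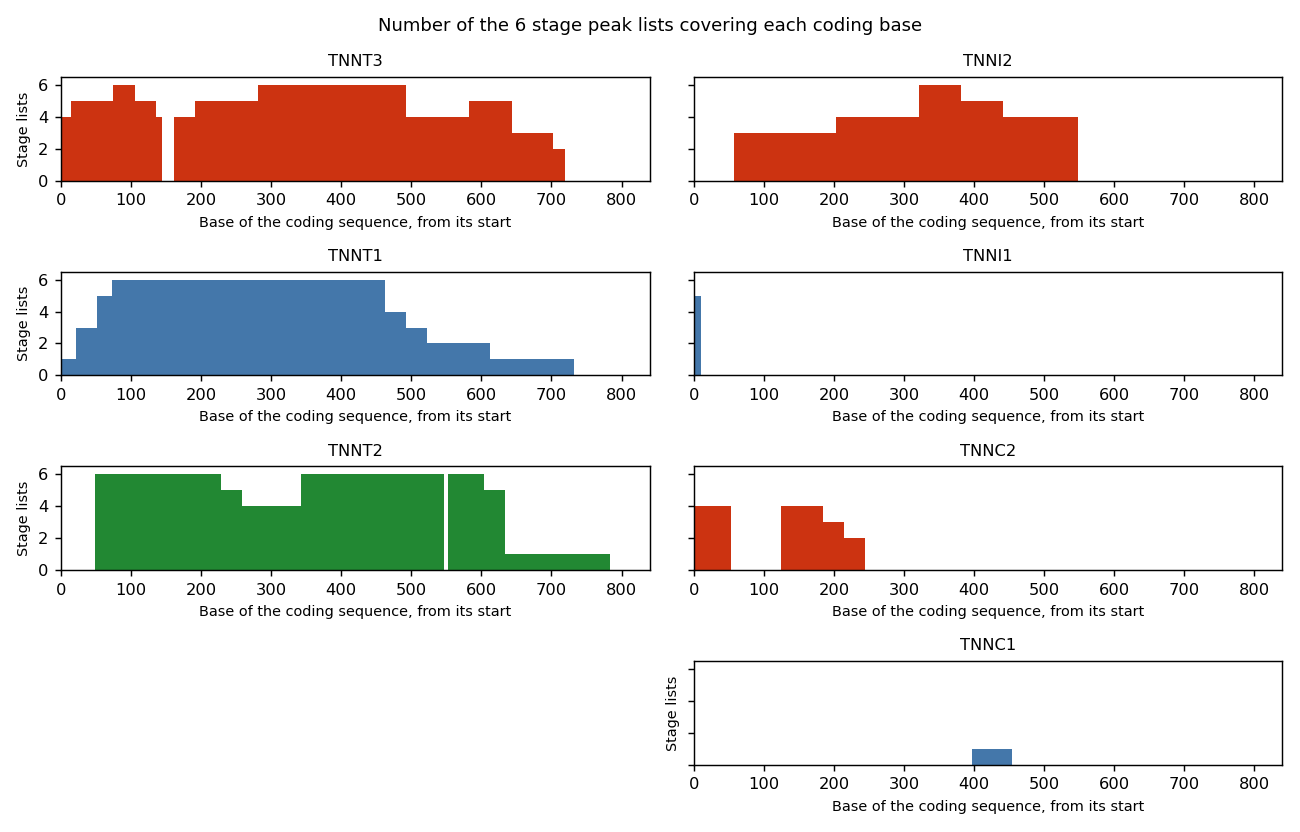
Number of the 6 stage peak lists that cover each base of the curated coding sequence, counted from its first base, 1 panel per gene. TNNT1 and TNNT2 show wide stretches at 6, TNNT3 and TNNI2 narrower ones, and TNNI1 and TNNC1 almost none.

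From one stage to the next, 38 of 45 member peaks overlapped a peak of the same gene by at least 1 base. The share over all peaks of the lists was not counted, so this number is only a description. The coding sequences of the 7 genes held 18 copies of GGAC followed by A, C or T, or 3.98 per kb, against 4.56 per kb over 3956 genes with a curated coding sequence. Of the 18, 13 (72.2%) lay in bases covered by a stage peak, where 64.0% of the members' coding bases lay. All 4 copies in TNNI2, all 3 in TNNT3, all 3 in TNNT2 and both in TNNT1 were covered, and none of the 3 in TNNI1 and not the 1 in TNNC1.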

How the data were processed

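Input RNA of 18 muscle libraries and m6A peak lists of 6 stages and 2 PK15 preparations were analysed. Gene levels are the authors' deposited TPM, and each peak carries a p-value and a fold enrichment (ratio) that the authors deposited per the file headers. The submitters' processing notes name Trimmomatic, HISAT2 and build Sscrofa11.1; the quantifier, peak caller and pooling are not given in the sources used here. Depth is unknown.

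From these, log2(TPM + 1) was, for the 13334 genes that averaged 1 TPM or more, fitted with limma 3.58.1 (R 4.3.3; trend, 6 stage means, 12 residual degrees of freedom), with Benjamini-Hochberg adjustment at 0.05, as deposited and after median-ratio scaling. The fit and the permutation test (Python 3.11.15) were tested on simulated data. Symbols came from the reference gene-name table (14748 genes in the files had one). Peaks were turned to 1-based positions; no peak passed a chromosome end, and 162 of 202 junctions between blocks of member peaks were RefSeq introns of the member. One duplicate peak was dropped. Promoter and coding sequences came from RefSeq's Sscrofa11.1 genome.

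Named genes were the 7 members, every list gene called, the 3 most alike genes per member and every member peak. One list gene is not reported here. The members, lists and alternatives were chosen with earlier results of these data known. Replicate numbers did not pair the libraries (median correlation 0.01 over 45 same-number pairs), so the fit has no block. PK15 gene levels and precipitated libraries outside the peak lists were not analysed here.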

Additional observations from a re-analysis of the deposited data

How the results depend on the processing

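Of 640 alternatives run, 552 kept the result: the direction and side of the threshold for a tested value, and a count within 1.5 times the main count. These include all 242 for the troponin ratios, whose side of the threshold came from the permutation test over the 6 stages. Many of these could not change the direction. Leaving out a library of E40 to E70 does not touch a ratio change from E33 to E95, and scaling nearly cancels within a ratio. Members called in E95 against E33, 5 as deposited, numbered between 4 and 7 over the alternatives. Members called over the 6 stages numbered 7 with quantile normalization, without the 2 most abundant genes, and without both libraries that stand apart. For the counts of this section, the share of all genes called is known here only as deposited and with median-ratio scaling. Over the 6 stages that share was 20.1% and 47.3%, so counts under other alternatives cannot be set against all genes. Calls between consecutive stages, 2 as deposited, numbered 9 with median-ratio scaling, 7 with quantile normalization, 7 without the 2 most abundant genes, and 1 each with a pseudocount of 0.1 and with no filter. They numbered 7 with scaling and without both libraries that stand apart, an alternative added after the data were seen, between 1 and 3 with 1 library left out (3 without E40 replicate 2 or E50 replicate 3), and between 7 and 11 with 1 left out after scaling, also added later. TNNI1 reversed to 0.77 scaled (also without both libraries), 0.48 with quantile normalization and 0.10 without the 2 most abundant genes; TNNT1 reversed to 0.08 and TNNC1 to 0.30 when scaled, also without both libraries. Thin filament partners called went from 5 to 8 when scaled and 8 without the 2 most abundant genes, regulators from 5 to 10 and 8, and slow fibre genes from 4 to 2 at the lowest with 1 library left out. With peaks above the median fold of their list alone, the members with a peak numbered 1 at E33, 3 at E50, 2 at each of the other 4 stages and 1 in each PK15 list. The cause of these changes was not tested.

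With the replicate number as a block, calls between consecutive stages numbered 1, and 9 with scaling. The block with scaling left TNNI1 at 0.77, TNNT1 at 0.08 and TNNC1 at 0.30, and without scaling TNNT1 was no longer called (limma, adjusted p = 0.0753). Replicate numbers did not pair the libraries: 7 of 18 correlated best with a library of their own number. TPM keep no depth, so no counting error can be given.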
